A study of Homo sapiens with 9 samples.

Results

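Gene expression was compared between A375P cells kept for 24 h with an inhibitor of the RAF-MEK-ERK pathway and A375P cells kept for 24 h with the solvent DMSO. A375P is an established human melanoma line that carries a mutant, constantly active RAF kinase, grown here in DMEM with 10% fetal bovine serum. The comparison rests on 3 of the 9 arrays of the series: cells with 1 µM of the MEK inhibitor PD184352, cells with 0.4 µM of the RAF inhibitor PLX4720, and cells with DMSO, each at 24 h. The other 6 arrays hold the same treatments at 2 h and 6 h and are used for the time course. All groups are the same line in the same medium, and there was 1 array per group. The design text speaks of triplicates, but nothing read here settles whether a deposited value is 1 array or an average. No spread between cultures and no test therefore stand behind the differences below.

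In melanoma cells with mutant RAF, RAF phosphorylates MEK, MEK phosphorylates ERK, and active ERK enters the nucleus and switches on growth genes. Among its quickest targets are its own brakes, the Sprouty proteins and dual-specificity phosphatases, along with immediate-early and ETS transcription factors. Through cyclin D1 the pathway feeds into the machinery of DNA replication and division. PD184352 blocks the pathway at MEK and PLX4720 one step above it, so genes that differ from DMSO with both compounds are the ones described here.

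A gene was counted when both inhibitor arrays differed from the DMSO array by at least 2-fold in the same direction, on log2(intensity + 1). Changes below are log2 differences, inhibitor minus DMSO at 24 h unless another time is named, and 1 on this scale is 2-fold. Of the 35446 rows of the array, 19380 carried 1 gene symbol, and after the dimmest 25% of genes were left out 12785 genes were compared. The median intensity was between 101.6 and 102.4 on the 24 h arrays, and the median change of all genes was −0.01 for the mean of both inhibitors. The 99th percentile of intensity lay between 1550 and 1654 on the inhibitor arrays of all times, against 1681 to 1754 on the DMSO arrays, and the part of this in the excess of lower genes was not tested.

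The label of the cells was checked against markers of their lineage and of other cell types. SOX10, a transcription factor of the melanocyte lineage, read 1768 with PD184352 and 1615 with PLX4720, against 1189 in DMSO cells. MITF, the lineage's central regulator, read 1386 with PD184352 and 1256 with PLX4720, against 1134 in DMSO cells, and the pigment-granule protein PMEL read 1634 with PD184352 and 1589 with PLX4720, against 1186 in DMSO cells. Of 10 melanocyte markers, 8 had a row naming 1 gene and 5 lay above the median of all 3 arrays, while TYR and DCT had no such row. Summed over those with a row, melanocyte markers reached 6209 with PD184352 and 5846 with PLX4720, against 4374 with DMSO. The summed levels of 7 fibroblast, 6 keratinocyte and 6 endothelial markers lay between 623 and 753 on every array. Of 6 leukocyte markers, CD68, which lysosomes of many cell types hold, gave most of the sum at 2103 with PD184352 and 1926 with PLX4720, against 1216 in DMSO cells, and the leukocyte antigen PTPRC was near the floor at 11.5 with PD184352 and 12.4 with PLX4720, against 11.7 in DMSO cells.

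With both inhibitors, 295 genes were at least 2-fold lower than in DMSO cells, 2.31% of those compared, and 124 genes were at least 2-fold higher, 0.97%. No gene passed 2-fold in opposite directions (0 genes). The lower genes had a median change of −1.5 with PD184352 and −1.31 with PLX4720, and the higher genes 1.5 with PD184352 and 1.3 with PLX4720. In each direction some differences were far larger, with 21 genes lower and 8 higher by at least 4-fold with both. The limit of 2-fold cuts through a dense range: 58 lower genes lay within 0.1 (log2) inside it and 71 within 0.1 outside it, with 27 and 34 on the higher side.

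**Figure D1:**
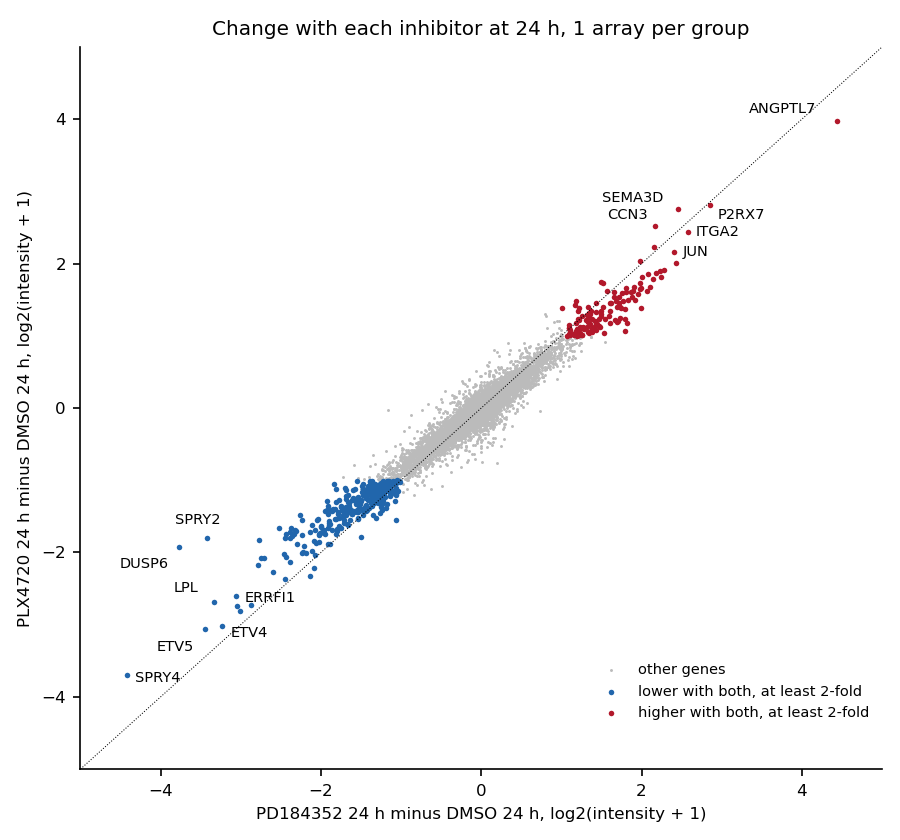
Change of each of 12785 genes at 24 h on the log2(intensity + 1) scale, PD184352 minus DMSO on the horizontal axis and PLX4720 minus DMSO on the vertical axis. Each point is 1 gene, blue for the 295 genes at least 2-fold lower with both and red for the 124 at least 2-fold higher; the dotted line marks equal change, and both axes share the same DMSO array. SPRY4 and ANGPTL7 stand farthest out.

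The DMSO arrays of 3 times give a measure of how much an untreated control array varied, culture time included. Between DMSO at 24 h and DMSO at 6 h, 1 gene was 2-fold lower and 0 were 2-fold higher. Between 24 h and 2 h, 4 were lower and 2 were higher. All 295 lower genes lay below, and all 124 higher genes above, every one of the 3 DMSO arrays on both inhibitor arrays, and 237 and 95 of them did so by 2-fold. Over all genes compared, 30.6% lay below and 27.7% above all 3 DMSO arrays with both inhibitors, so the order alone sets few genes apart. Among the higher genes the gap was smallest for the noncoding LINC00342, at 0.02 (log2), since its level on the DMSO array of 2 h was nearly as high. It is named after its values were seen.

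Of all genes compared, SPRY4, a Sprouty protein that dampens receptor and RAS signalling, was the lowest relative to DMSO. Its intensity was 88.2 with PD184352 and 147 with PLX4720, against 1910.3 in DMSO cells, a change of −4.42 with PD184352 and −3.69 with PLX4720. SPRY2, of the same family, read 95.4 with PD184352 and 296 with PLX4720, against 1034 in DMSO cells (−3.43 with PD184352 and −1.80 with PLX4720). DUSP6, the phosphatase that dephosphorylates ERK itself, read 114 with PD184352 and 411 with PLX4720, against 1561 in DMSO cells (−3.77 with PD184352 and −1.92 with PLX4720). For SPRY2 and DUSP6 the inhibitor arrays lay farther apart than for SPRY4, and for each of these genes both were far below DMSO. ERRFI1, which inhibits the EGF receptor, read 156 with PD184352 and 193 with PLX4720, against 1299.9 in DMSO cells (−3.05 with PD184352 and −2.74 with PLX4720). SPRED1, a Sprouty-related inhibitor of RAS signalling, read 469 with PD184352 and 682 with PLX4720, against 1372 in DMSO cells, and DUSP4, a nuclear phosphatase of MAP kinases, 404 with PD184352 and 449.9 with PLX4720, against 760.3 in DMSO cells, short of 2-fold with both. Of 11 feedback inhibitors compared, 6 were at least 1.5-fold lower with both, against a background of 6.68% of all genes. None was 1.5-fold higher (0 of 11), against a background of 3.21%. Their median change was −0.83, and all 11 were below DMSO with both compounds by some amount, against 44.1% of all genes. These shares of all genes, 6.68% lower and 3.21% higher by 1.5-fold, hold for every list count at 24 h below.

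The PEA3 group of ETS transcription factors, which ERK signalling induces, were all among the first 10 lower genes. ETV5 read 72.0 with PD184352 and 94.4 with PLX4720, against 795 in DMSO cells (−3.45 with PD184352 and −3.06 with PLX4720). ETV4 read 109 with PD184352 and 126 with PLX4720, against 1026 in DMSO cells (−3.23 with PD184352 and −3.02 with PLX4720). ETV1 read 74.3 with PD184352 and 93.2 with PLX4720, against 454 in DMSO cells (−2.60 with PD184352 and −2.27 with PLX4720). On both inhibitor arrays the 3 factors lay below the median of the genes compared, which was 7.88 (log2) with PD184352 and 7.89 with PLX4720. Their values there were not far from the lowest mean kept by the filter on dim genes, 73.1. On the DMSO array they lay above the median of the genes compared, 7.94 (log2). IER3, an immediate-early gene tied to cell survival, read 711 with PD184352 and 816 with PLX4720, against 2039.9 in DMSO cells. In the whole list of 24 ETS and immediate-early factors, 10 were at least 1.5-fold lower and 2 were higher, and the median change was −0.24. The 2 higher members are both AP-1 subunits. JUN read 2124 with PD184352 and 1797 with PLX4720, against 399 in DMSO cells (2.41 with PD184352 and 2.17 with PLX4720), and FOSL2, a FOS-related partner of JUN, read 1404 with PD184352 and 1109 with PLX4720, against 394 in DMSO cells (1.83 with PD184352 and 1.49 with PLX4720). FOSL1, another AP-1 subunit, was lower at 290.1 with PD184352 and 327 with PLX4720, against 687 in DMSO cells. It was singled out after its values were seen. The list thus did not move one way, and neither did the AP-1 subunits.

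**Figure D2:**
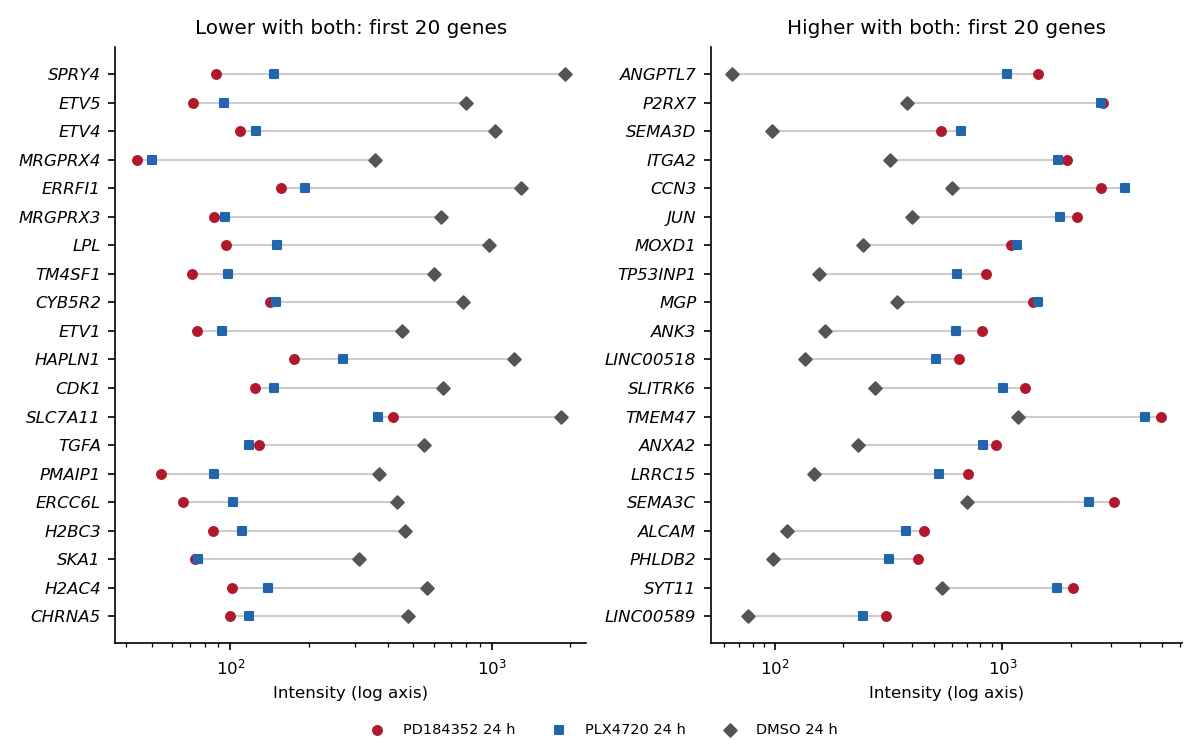
Intensity on a log axis on the 3 arrays of 24 h for the first 20 genes lower with both inhibitors (left) and the first 20 higher (right), ranked by the smaller of both changes. Circles are PD184352, squares PLX4720 and diamonds DMSO, each 1 array; for every gene drawn the inhibitor values lie close together and the DMSO value apart.

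TGFA, a ligand of the EGF receptor, read 129 with PD184352 and 118 with PLX4720, against 552 in DMSO cells (−2.09 with PD184352 and −2.22 with PLX4720). VEGFA, the main growth factor of blood vessels, read 219 with PD184352 and 229 with PLX4720, against 439 in DMSO cells. The ephrin receptor EPHA4 read 93.0 with PD184352 and 91.8 with PLX4720, against 229 in DMSO cells, and EPHA3, of the same family, read 919.9 with PD184352 and 964 with PLX4720, against 1861 in DMSO cells. All 4 were lower with both compounds by more than 1.5-fold, TGFA by more than 4-fold. Another pair of receptors was higher. ERBB3, a partner of ERBB2 that binds neuregulin, read 2482 with PD184352 and 2038 with PLX4720, against 1189.5 in DMSO cells, and DDR1, a collagen receptor with kinase activity, 1107 with PD184352 and 869.6 with PLX4720, against 467 in DMSO cells. Over 34 receptor tyrosine kinases and ligands, 5 were lower and 3 were higher by 1.5-fold with both, against 6.68% lower and 3.21% higher over all genes, with a median change of 0.01.

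Several of the most strongly lower genes belong to no signalling list. LPL, the lipase that frees fatty acids from lipoproteins, read 96.1 with PD184352 and 150.3 with PLX4720, against 977 in DMSO cells (−3.33 with PD184352 and −2.69 with PLX4720). TM4SF1, a small membrane protein of migrating cells, read 71.6 with PD184352 and 98.0 with PLX4720, against 603 in DMSO cells (−3.06 with PD184352 and −2.61 with PLX4720). HAPLN1, which links hyaluronan to proteoglycans, read 176 with PD184352 and 269 with PLX4720, against 1221 in DMSO cells (−2.79 with PD184352 and −2.18 with PLX4720). CYB5R2, a cytochrome b5 reductase, read 141 with PD184352 and 150.1 with PLX4720, against 775 in DMSO cells, and CHRNA5, a nicotinic acetylcholine receptor subunit, 99.9 with PD184352 and 118 with PLX4720, against 476 in DMSO cells. MRGPRX4 and MRGPRX3, receptors known from sensory neurons, read 43.9 with PD184352 and 50.1 with PLX4720, against 359 in DMSO cells for MRGPRX4 and 86.7 with PD184352 and 95.3 with PLX4720, against 638 in DMSO cells for MRGPRX3. These 2 genes are close paralogs, and how far their probes tell them apart is uncertain. PMAIP1, a BH3-only protein that promotes cell death, read 54.4 with PD184352 and 86.9 with PLX4720, against 369 in DMSO cells (−2.74 with PD184352 and −2.08 with PLX4720). BMF, another BH3-only protein, differed the other way at 697 with PD184352 and 511 with PLX4720, against 165 in DMSO cells (2.07 with PD184352 and 1.63 with PLX4720), and the other 12 BCL2 family genes compared did not pass 1.5-fold with both.

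The lists with the most lower genes were those of cell division, DNA replication and histones. At the G1 stage CCND1, cyclin D1, read 425 with PD184352 and 602 with PLX4720, against 1762 in DMSO cells (−2.05 with PD184352 and −1.55 with PLX4720). CDC25A, the phosphatase that activates cyclin-dependent kinases, read 97.6 with PD184352 and 147 with PLX4720, against 505 in DMSO cells (−2.36 with PD184352 and −1.78 with PLX4720). CCNE2, an E-type cyclin, read 78.0 with PD184352 and 94.3 with PLX4720, against 307 in DMSO cells, and CDK2, the kinase it binds, 579.8 with PD184352 and 604 with PLX4720, against 1324 in DMSO cells. The repressive factors E2F7 and E2F8 were also lower, E2F8 at 136 with PD184352 and 156 with PLX4720, against 359 in DMSO cells and E2F7 at 131 with PD184352 and 141 with PLX4720, against 309 in DMSO cells. Of 19 G1 cyclins, kinases and E2F factors, 14 were lower by 1.5-fold with both, 0 were higher, and the median change was −0.97. In bulk RNA, fewer cells in a given phase and less RNA per cell cannot be told apart.

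In the DNA replication list, 31 of 47 genes were at least 1.5-fold lower with both compounds, 22 of them 2-fold, 0 were higher, and the median was −1.11. MCM10 and CDC45, which help assemble and activate the replicative helicase, read 115 with PD184352 and 183 with PLX4720, against 605 in DMSO cells for MCM10 and 219.9 with PD184352 and 340.1 with PLX4720, against 1103 in DMSO cells for CDC45. CLSPN, the checkpoint adaptor claspin, read 121 with PD184352 and 168 with PLX4720, against 571 in DMSO cells (−2.23 with PD184352 and −1.76 with PLX4720). RFC3, a subunit of the clamp loader, read 336 with PD184352 and 472 with PLX4720, against 1449.7 in DMSO cells (−2.11 with PD184352 and −1.62 with PLX4720). DSCC1, part of an alternative clamp loader, and DNA2, a nuclease and helicase, read 137 with PD184352 and 161 with PLX4720, against 581 in DMSO cells for DSCC1 and 93.6 with PD184352 and 110.2 with PLX4720, against 368 in DMSO cells for DNA2. All 47 members lay below DMSO with both compounds, whether or not they passed a limit. Of 25 genes of nucleotide and one-carbon synthesis, 16 were lower and 0 higher, with a median of −0.72. MTHFD2, a mitochondrial folate enzyme, read 108 with PD184352 and 147 with PLX4720, against 395 in DMSO cells, and RRM2, the regulated subunit of ribonucleotide reductase, 90.8 with PD184352 and 139 with PLX4720, against 299 in DMSO cells. TYMS, which makes thymidylate, read 384 with PD184352 and 383 with PLX4720, against 847 in DMSO cells.

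Genes of DNA repair, many of which act at stalled forks, were lower in 24 of 34 cases and higher in 0, with a median of −0.97. EXO1, an exonuclease of mismatch repair and recombination, read 273 with PD184352 and 412 with PLX4720, against 1379 in DMSO cells (−2.33 with PD184352 and −1.74 with PLX4720). BLM, the Bloom helicase, read 68.9 with PD184352 and 92.3 with PLX4720, against 306 in DMSO cells. FANCB, a subunit of the Fanconi core complex, read 159 with PD184352 and 194 with PLX4720, against 651 in DMSO cells. CHEK1, the kinase of the replication checkpoint, read 163 with PD184352 and 223 with PLX4720, against 591 in DMSO cells. The helicase BRIP1, a partner of BRCA1, read 118 with PD184352 and 144 with PLX4720, against 419.8 in DMSO cells. Each of these inhibitor values lay below the DMSO value by more than 2-fold.

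Mitosis was the list with the lowest median: 63 of 68 genes were at least 1.5-fold lower with both, 49 of them 2-fold, and 0 were higher, with a median change of −1.25. CDK1, the kinase that drives entry into mitosis, read 124 with PD184352 and 147 with PLX4720, against 649 in DMSO cells (−2.38 with PD184352 and −2.14 with PLX4720). KIF11, the kinesin that separates the spindle poles, read 326 with PD184352 and 326 with PLX4720, against 1204 in DMSO cells (−1.88 with PD184352 and −1.88 with PLX4720). TTK, a kinase of the spindle checkpoint, read 119.8 with PD184352 and 145 with PLX4720, against 487 in DMSO cells, and NDC80, which holds microtubules at the kinetochore, 164 with PD184352 and 175 with PLX4720, against 573 in DMSO cells. The mitotic kinases PBK and MELK read 531 with PD184352 and 581 with PLX4720, against 2293 in DMSO cells for PBK and 167 with PD184352 and 188 with PLX4720, against 685 in DMSO cells for MELK. SKA1, a kinetochore protein, read 73.1 with PD184352 and 74.95 with PLX4720, against 310.2 in DMSO cells, and ERCC6L, a translocase that resolves bridges between separating chromosomes, 65.8 with PD184352 and 103 with PLX4720, against 436 in DMSO cells. For KIF11 and SKA1 the inhibitor arrays were almost equal. ERCC6L and SKA1 stand among the first 20 lower genes without being in the list.

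Of 39 replication-dependent histone genes, 27 were at least 1.5-fold lower with both and 0 were higher, with a median of −1.23. H2BC3 read 85.8 with PD184352 and 110.4 with PLX4720, against 467 in DMSO cells, and H2AC4 102 with PD184352 and 139 with PLX4720, against 565 in DMSO cells. H4C4, at higher levels, read 259 with PD184352 and 303 with PLX4720, against 1211 in DMSO cells, and the linker histone gene H1-5 221 with PD184352 and 400.1 with PLX4720, against 1271 in DMSO cells. Histone genes are near-identical copies, so which copy a probe read is uncertain, and the standing of single members should be taken with that limit. Of 23 genes of chromatin assembly and the nuclear lamina, 18 were lower and 0 higher (median −1.0), among them the proliferation antigen MKI67 at 599 with PD184352 and 635 with PLX4720, against 1863 in DMSO cells. CHAF1A, the large subunit of the chromatin assembly factor, read 223 with PD184352 and 274 with PLX4720, against 653 in DMSO cells, and the remodeller HELLS 152 with PD184352 and 184 with PLX4720, against 605 in DMSO cells. Of 24 nucleoporins, 13 were lower and 0 higher, with a median of −0.63. These 3 lists were put together after the values had been seen and are given as a description.

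The inhibitors of the cell cycle did not mirror this. Of 16 CDK inhibitors, pocket proteins and quiescence genes, 2 were lower and 1 higher, with a median of 0.02. The lower pair were RBL1, the pocket protein p107, at 402 with PD184352 and 430.0 with PLX4720, against 907 in DMSO cells, and LIN9, a subunit of the MuvB complex, at 95.3 with PD184352 and 117 with PLX4720, against 227 in DMSO cells. CABLES1, a cyclin-dependent kinase binding protein, was higher at 630.2 with PD184352 and 599 with PLX4720, against 376 in DMSO cells. CDKN1A and CDKN1B, the inhibitors p21 and p27, are named after their values were seen: CDKN1A read 384 with PD184352 and 361 with PLX4720, against 317 in DMSO cells, and CDKN1B 116 with PD184352 and 117 with PLX4720, against 121 in DMSO cells.

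**Figure D3:**
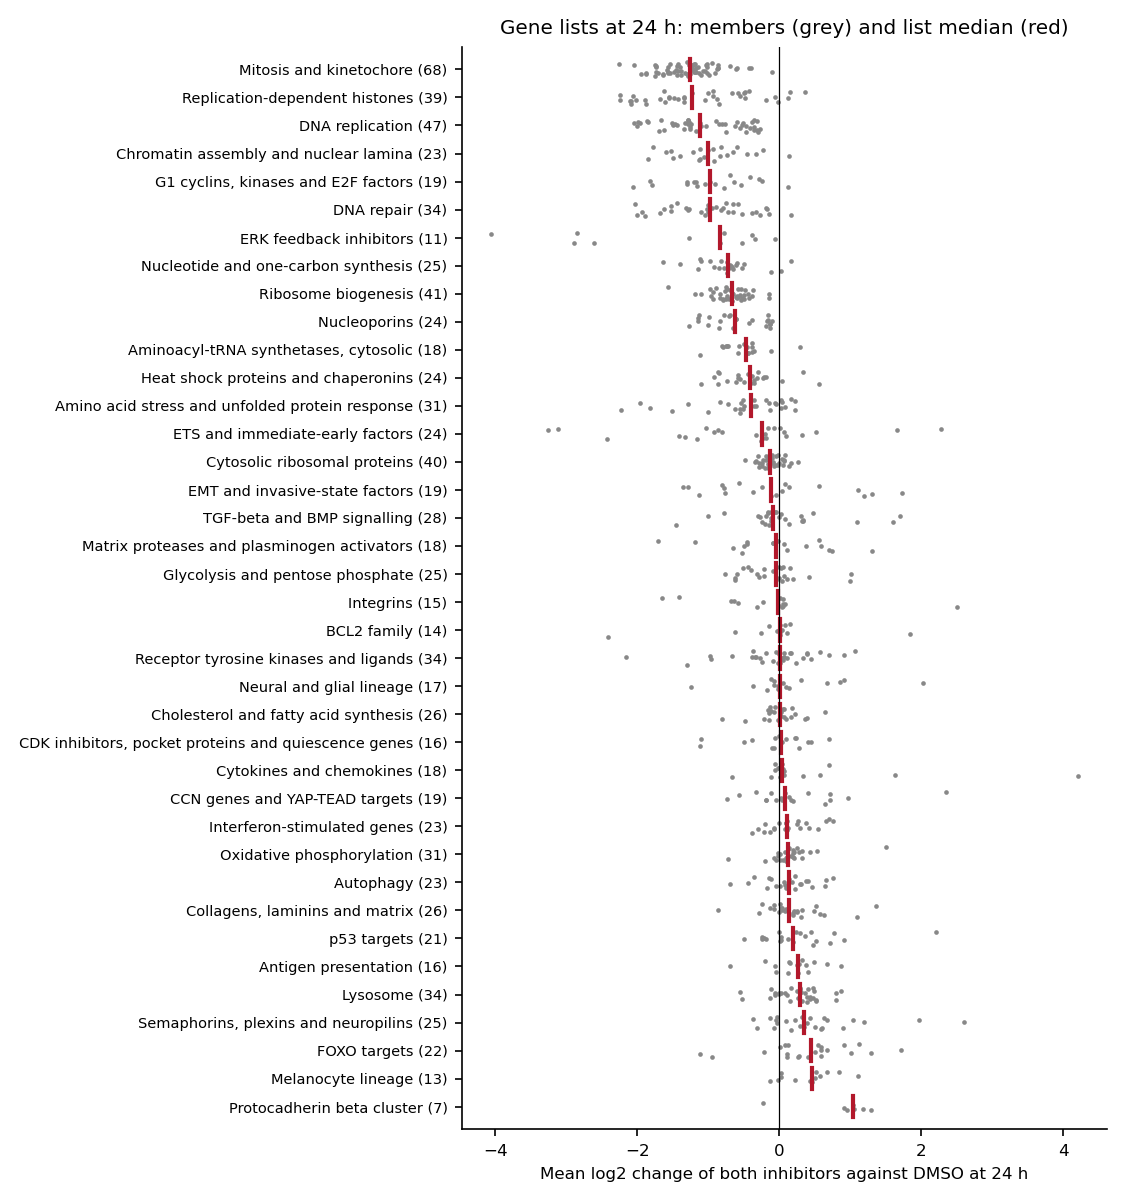
Mean log2 change of both inhibitors against DMSO at 24 h for the members of 38 gene lists, sorted by list median, with the number of genes compared in brackets. Grey points are genes, red bars list medians and the vertical line is 0. The medians run from −1.25 for mitosis to 1.04 for the protocadherin beta cluster.

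The promoters of the division genes hold letters long known from cell-cycle promoters. The CHR element TTTGAA and the CCAAT box CCAAT, bound by MuvB complexes and by NF-Y, occur in promoters active in late cycle, while E2F elements occur in those active at the start of replication. Windows of 300 bases, 250 before to 50 after the annotated start, were taken from RefSeq, GRCh38.p14, and searched on both strands. The 3 windows below belong to the first genes of the mitosis list, by size of change, that hold both a CHR element and a CCAAT box, shown because their transcripts were among the lowest of that list. Windows of a chromosome that was set aside were not considered here or for the replication list below, so genes of higher rank may be missing. Capitals mark every CHR element (TTTGAA or TTCAAA) and CCAAT box (CCAAT or ATTGG).
CDK1, chr10:60778228-60778527, plus strand: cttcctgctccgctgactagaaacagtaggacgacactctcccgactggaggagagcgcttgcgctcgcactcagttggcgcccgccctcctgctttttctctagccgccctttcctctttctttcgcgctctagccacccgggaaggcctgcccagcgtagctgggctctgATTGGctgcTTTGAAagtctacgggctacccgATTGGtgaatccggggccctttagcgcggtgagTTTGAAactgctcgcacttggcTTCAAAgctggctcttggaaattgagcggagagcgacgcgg
KIF11, chr10:92592880-92593179, plus strand: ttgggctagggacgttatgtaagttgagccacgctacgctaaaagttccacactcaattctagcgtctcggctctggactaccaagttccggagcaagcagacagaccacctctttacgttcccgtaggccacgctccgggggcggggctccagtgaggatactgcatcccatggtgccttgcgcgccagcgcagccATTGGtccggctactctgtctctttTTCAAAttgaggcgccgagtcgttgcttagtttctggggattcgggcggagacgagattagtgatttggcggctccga
KIF14, chr1:200620702-200621001, minus strand: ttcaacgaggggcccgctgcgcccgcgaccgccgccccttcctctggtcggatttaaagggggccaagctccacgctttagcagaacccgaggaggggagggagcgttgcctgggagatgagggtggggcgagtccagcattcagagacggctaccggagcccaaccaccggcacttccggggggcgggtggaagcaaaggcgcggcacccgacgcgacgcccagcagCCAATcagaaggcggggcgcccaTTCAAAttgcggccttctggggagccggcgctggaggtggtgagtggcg
The next 2 windows are those of the first genes of the replication list with an E2F element, which here is TTTCCCGC or TTTGGCGC on either strand, and capitals mark that element alone.
CLSPN, chr1:35769929-35770228, minus strand: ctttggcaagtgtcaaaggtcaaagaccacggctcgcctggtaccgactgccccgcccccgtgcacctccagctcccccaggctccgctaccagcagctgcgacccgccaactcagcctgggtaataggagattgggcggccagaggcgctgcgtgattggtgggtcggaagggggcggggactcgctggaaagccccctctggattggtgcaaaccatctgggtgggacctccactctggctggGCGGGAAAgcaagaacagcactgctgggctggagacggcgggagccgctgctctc
RFC3, chr13:33817899-33818198, plus strand: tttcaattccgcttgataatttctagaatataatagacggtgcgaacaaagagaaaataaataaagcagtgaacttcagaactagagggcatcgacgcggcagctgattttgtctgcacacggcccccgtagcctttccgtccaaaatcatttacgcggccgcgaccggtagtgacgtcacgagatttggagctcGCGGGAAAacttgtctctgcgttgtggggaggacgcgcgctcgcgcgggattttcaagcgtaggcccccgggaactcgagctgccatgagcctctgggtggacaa

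CDK1 holds 3 CHR elements in this window, whose first bases lie at −69, −13 and 10 from the start, and 2 CCAAT boxes at −78 and −46. KIF11 has 1 of each, at −28 and −53, and KIF14, a kinesin of the last step of division, has 1 of each at 2 and −22. The transcript of KIF14 read 259.6 with PD184352 and 282 with PLX4720, against 902 in DMSO cells (−1.79 with PD184352 and −1.68 with PLX4720). The E2F element starts at −5 in CLSPN and at −55 in RFC3. In all 3 mitotic genes a CHR element lies close to the start, with the CCAAT box before it. KIF11 and KIF14 had 1 window each. CDK1 had 2, and where several held both elements the one with its CHR element nearest the start was taken.

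Across the mitosis list, 54.8% of 73 promoter windows held a CHR element, against 10.3% of the 14558 windows of all genes compared and 15.2% of all 35116 RefSeq windows. A gene can have several windows, and 56 of the 68 mitosis genes had one. A CCAAT box was in 69.9% of mitosis windows, against 33.9% for all genes compared. Both together were in 43.8%, against 3.99%. Position differed too: of the windows with a CHR element, 85% had it within 50 bases of the start in the mitosis list, against 28.1% among all genes compared. In the replication list the picture was another: 4.17% of 48 windows held a CHR element and 31.2% an E2F element, against 3.08% of windows of all genes compared and 2.27% of all RefSeq windows for E2F.

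The same letters were more frequent among the 295 lower genes as a whole. A CHR element was in 28.7% of their 300 windows and an E2F element in 9.33%, while the 187 windows of the higher genes held them in 13.4% and 0.535%. Lower genes that had not passed 1.5-fold at 6 h held a CHR element in 32.4% of 225 windows and an E2F element in 12.0%. Those already lower at 6 h held them in 17.3% and 1.33% of 75 windows. The E-box CACGTG, which MYC binds, was in 38.5% of 39 ribosome biogenesis windows, against 9.14% for all genes compared and 7.26% of all RefSeq windows. The ETS element CCGGAAG was in 33.3% of these windows, against 14.5% for all genes compared and 10.3% of all RefSeq windows. It was in 4.0% of the windows of genes already lower at 6 h and in 4.28% of those of higher genes. The cAMP response element TGACGTCA was in 5.33% of the windows of lower genes, against 2.59% for all genes compared. The AP-1 element TGANTCA was in 9.09% of the windows of higher genes, against 5.45% for all genes compared and 7.71% of all RefSeq windows. A match is a run of letters and no measured binding.

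**Figure D4:**
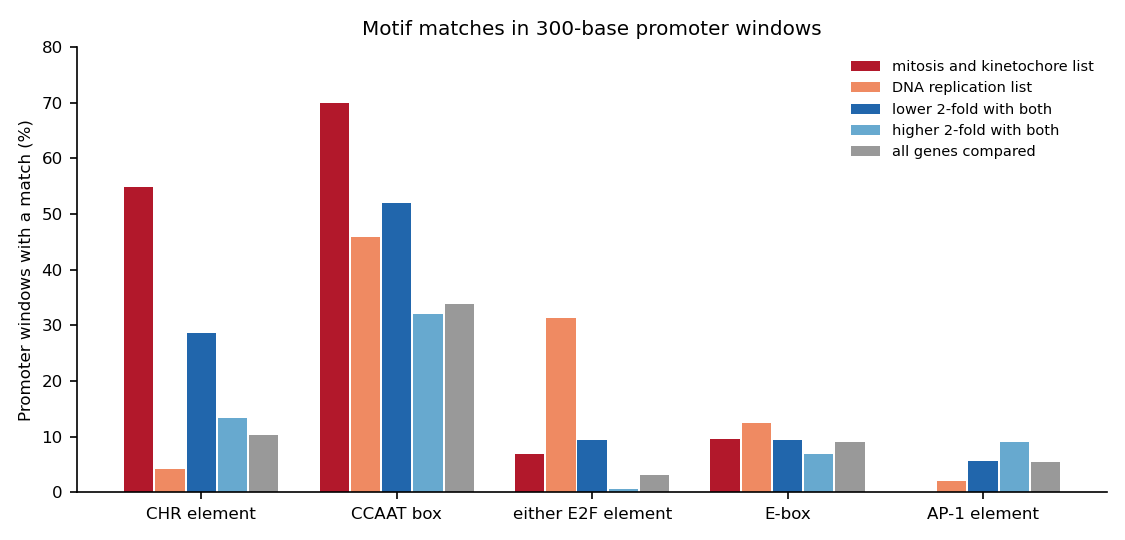
Percent of 300-base promoter windows with at least 1 match on either strand for 5 elements, in the mitosis and replication lists, the genes lower and higher by 2-fold with both inhibitors, and all genes compared. The bars start at 0 and carry no error because each is a count over a fixed set; the CHR bar of the mitosis list (54.8%) and the E2F bar of the replication list (31.2%) stand above those of all genes compared (10.3% and 3.08%).

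Of 41 ribosome biogenesis genes, 21 were at least 1.5-fold lower with both and 3 by 2-fold, 0 were higher, all 41 were below DMSO with both, against 44.1% of all genes, and the median change was −0.67. LYAR, a nucleolar protein, read 294 with PD184352 and 361 with PLX4720, against 972 in DMSO cells, and NOLC1, a nucleolar phosphoprotein, 640.2 with PD184352 and 711 with PLX4720, against 1453 in DMSO cells. RRS1, which acts on the large subunit, read 559 with PD184352 and 715 with PLX4720, against 1436 in DMSO cells. POLR1B, the second-largest subunit of RNA polymerase I, read 275 with PD184352 and 322 with PLX4720, against 582 in DMSO cells. The proteins of the finished ribosome stayed near the control: of 40 cytosolic ribosomal protein genes, 0 passed 1.5-fold in either direction, and the median was −0.12.

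In the list of amino acid stress and the unfolded protein response, 8 of 31 genes were lower and 0 higher, with a median of −0.40. The lower members include amino acid transporters. SLC7A11, which imports cystine, read 418 with PD184352 and 366 with PLX4720, against 1841 in DMSO cells (−2.14 with PD184352 and −2.33 with PLX4720). SLC1A5, a glutamine transporter, read 456 with PD184352 and 586 with PLX4720, against 1827 in DMSO cells (−2.0 with PD184352 and −1.64 with PLX4720). SLC7A1, for cationic amino acids, read 516 with PD184352 and 636 with PLX4720, against 1626 in DMSO cells, and SLC7A5, for large neutral ones, 1507 with PD184352 and 1312 with PLX4720, against 3422 in DMSO cells. CHAC1, a target of ATF4 that degrades glutathione, read 172 with PD184352 and 195 with PLX4720, against 718 in DMSO cells. At 6 h the DMSO array read 373 for CHAC1 and 1203 for SLC7A11, so for both the control was higher at 24 h. For SLC7A1 and SLC7A5 it was not. Among 18 cytosolic aminoacyl-tRNA synthetases, 6 were lower and 0 higher, with a median of −0.47, led by MARS1 at 1546 with PD184352 and 1884 with PLX4720, against 3690.1 in DMSO cells. MARS1 read 2911 in DMSO cells at 6 h. The median of DMSO at 24 h minus DMSO at 6 h was 0.13 in the amino acid list and 0.13 in the synthetase list. Over all genes compared it was −0.003. What part this drift of the control has in the difference of these lists was not tested. Of 24 heat shock proteins and chaperonins, 6 were lower and 0 higher (median −0.42). BAG3, a co-chaperone of HSP70, read 244 with PD184352 and 273 with PLX4720, against 553 in DMSO cells, and HSPH1 336 with PD184352 and 333 with PLX4720, against 636 in DMSO cells.

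On the higher side the first gene was ANGPTL7, a secreted angiopoietin-like protein. Its intensity was 1429 with PD184352 and 1044 with PLX4720, against 65.2 in DMSO cells (4.43 with PD184352 and 3.98 with PLX4720). On the arrays of 2 h and 6 h it read between 55.8 and 71.3. All its other values thus lay below the lowest mean kept by the filter on dim genes, 73.1. ANGPTL7 passed that filter only through the inhibitor arrays of 24 h, and its change rests on a control near the floor. P2RX7, a channel opened by extracellular ATP, read 2757 with PD184352 and 2696 with PLX4720, against 382 in DMSO cells (2.85 with PD184352 and 2.82 with PLX4720). CCN3, a matricellular protein, read 2707 with PD184352 and 3447 with PLX4720, against 600.2 in DMSO cells (2.17 with PD184352 and 2.52 with PLX4720), and MGP, an inhibitor of calcification in the matrix, 1367 with PD184352 and 1428 with PLX4720, against 346 in DMSO cells. MOXD1, related to dopamine beta-hydroxylase, read 1095 with PD184352 and 1154 with PLX4720, against 245 in DMSO cells. TMEM47, a protein of cell junctions, was bright on all 3 arrays at 4947 with PD184352 and 4237 with PLX4720, against 1168 in DMSO cells. The noncoding LINC00518 and LINC00589 read 642 with PD184352 and 512 with PLX4720, against 136 in DMSO cells for LINC00518 and 307 with PD184352 and 244 with PLX4720, against 76.1 in DMSO cells for LINC00589. At 2 h and 6 h LINC00589 read between 60.0 and 83.7, so its control too was near the level of the filter.

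ITGA2, the collagen-binding integrin subunit, read 1923 with PD184352 and 1746 with PLX4720, against 322 in DMSO cells (2.58 with PD184352 and 2.44 with PLX4720). ALCAM, an adhesion molecule of the immunoglobulin family, read 451 with PD184352 and 378 with PLX4720, against 113 in DMSO cells, and LRRC15, a leucine-rich membrane protein, 707 with PD184352 and 527 with PLX4720, against 149 in DMSO cells. ANK3, ankyrin G, which ties membrane proteins to the cytoskeleton, read 817 with PD184352 and 628 with PLX4720, against 167 in DMSO cells. PHLDB2, which anchors microtubules at the cell cortex, read 425 with PD184352 and 316 with PLX4720, against 98.0 in DMSO cells, and ANXA2, a membrane-binding annexin, 935 with PD184352 and 824 with PLX4720, against 233 in DMSO cells. The other integrin subunits that passed were lower: ITGA9 read 179 with PD184352 and 214 with PLX4720, against 614 in DMSO cells, ITGB3, of the vitronectin receptor, 855 with PD184352 and 1029.5 with PLX4720, against 2490.1 in DMSO cells. Over 15 integrins, 4 were lower and 1 higher, with a median of −0.02.

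The semaphorins, plexins and neuropilins that passed 1.5-fold with both were all higher, unlike the ephrin receptors EPHA4 and EPHA3 above. Of 25 semaphorins, plexins and neuropilins, 5 were at least 1.5-fold higher with both and 0 lower, with a median of 0.34. SEMA3D, a secreted semaphorin, read 534 with PD184352 and 661 with PLX4720, against 96.9 in DMSO cells (2.45 with PD184352 and 2.76 with PLX4720). SEMA3C read 3088 with PD184352 and 2406 with PLX4720, against 697 in DMSO cells (2.14 with PD184352 and 1.79 with PLX4720), and the plexin PLXNB3, a semaphorin receptor, 1423 with PD184352 and 1253 with PLX4720, against 583 in DMSO cells. SLITRK6, a neuronal membrane protein of the list of neural genes, read 1256 with PD184352 and 1010.1 with PLX4720, against 276 in DMSO cells (2.18 with PD184352 and 1.87 with PLX4720). Of 7 clustered protocadherin beta genes, 6 were higher and 0 lower with a median of 1.04, a list added after the values were seen. PCDHB11 read 206 with PD184352 and 245 with PLX4720, against 90.8 in DMSO cells, but these genes are near-identical paralogs and the reading of single members is uncertain.

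COL5A2, a fibrillar collagen, read 1722 with PD184352 and 1795 with PLX4720, against 683 in DMSO cells, and LAMB2, a laminin chain, 2026 with PD184352 and 2051 with PLX4720, against 951 in DMSO cells. TNC, tenascin C, was lower at 1316 with PD184352 and 1455 with PLX4720, against 2528 in DMSO cells. MMP16, a membrane-bound metalloproteinase, was lower at 452 with PD184352 and 483 with PLX4720, against 1529 in DMSO cells, as was the plasminogen activator PLAT at 638 with PD184352 and 1109 with PLX4720, against 1916 in DMSO cells. MMP15, of the same family as MMP16, was higher at 809.5 with PD184352 and 698 with PLX4720, against 303 in DMSO cells, as were MMP2 at 748 with PD184352 and 777 with PLX4720, against 453 in DMSO cells and MMP14, its activator, at 958 with PD184352 and 961 with PLX4720, against 591 in DMSO cells. CCL2, a chemokine for monocytes, read 209 with PD184352 and 243 with PLX4720, against 72.3 in DMSO cells. Of 18 matrix proteases and plasminogen activators, 2 were lower and 3 higher. Of 26 collagens, laminins and matrix genes, 1 was lower and 2 were higher. Against 6.68% lower and 3.21% higher over all genes, these counts are a few genes each and are no result about the lists.

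ZEB1, a repressor linked to invasive melanoma states, read 64.5 with PD184352 and 65.3 with PLX4720, against 168 in DMSO cells (−1.37 with PD184352 and −1.35 with PLX4720). Its relative ZEB2, linked to the melanocytic state, read 630.1 with PD184352 and 569.6 with PLX4720, against 179.7 in DMSO cells (1.80 with PD184352 and 1.66 with PLX4720). TFAP2C, an AP-2 factor, read 609 with PD184352 and 659.9 with PLX4720, against 1553 in DMSO cells, and its relative TFAP2A 543 with PD184352 and 549 with PLX4720, against 253 in DMSO cells. LEF1, the nuclear partner of beta-catenin, read 77.1 with PD184352 and 75.2 with PLX4720, against 169 in DMSO cells. In both pairs one relative was lower and the other higher with both compounds. TGFBI, a matrix protein induced by TGF-beta, read 1959.9 with PD184352 and 1844 with PLX4720, against 769 in DMSO cells. The receptor TGFBR2 read 2047 with PD184352 and 1877 with PLX4720, against 646 in DMSO cells (1.66 with PD184352 and 1.54 with PLX4720), and PMEPA1, a target that restrains TGF-beta signalling, 2032 with PD184352 and 1761 with PLX4720, against 579.8 in DMSO cells. The DMSO level of PMEPA1 was 10.13 (log2) at 6 h and 9.18 at 24 h. Its inhibitor values lay only 0.65 (log2) above the highest DMSO array. FST, follistatin, which traps activins, was lower at 157 with PD184352 and 216 with PLX4720, against 505 in DMSO cells. In the TGF-beta and BMP list, added after the values were seen, 3 of 28 genes were lower and 3 higher.

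In the melanocyte list 3 of 13 genes were at least 1.5-fold higher with both and 0 lower, with a median of 0.47. GPNMB, a glycoprotein of melanosomes and lysosomes, read 1369 with PD184352 and 1242 with PLX4720, against 606 in DMSO cells (1.18 with PD184352 and 1.03 with PLX4720). S100B read 627 with PD184352 and 664 with PLX4720, against 361 in DMSO cells, and MLANA, a melanosome antigen, 120.0 with PD184352 and 119 with PLX4720, against 74.9 in DMSO cells. In the FOXO target list 5 of 22 were higher and 2 lower, with a median of 0.45. KLHL24 read 1138 with PD184352 and 895 with PLX4720, against 307 in DMSO cells, CITED2, a co-regulator of CBP and p300, 652 with PD184352 and 733 with PLX4720, against 280.0 in DMSO cells, and SESN3, a sestrin that restrains mTORC1, 2073 with PD184352 and 1914 with PLX4720, against 912 in DMSO cells. The lower pair were the pseudokinase TRIB1 at 246 with PD184352 and 305 with PLX4720, against 597 in DMSO cells and PDK4, which inhibits pyruvate dehydrogenase, at 91.1 with PD184352 and 97.2 with PLX4720, against 183 in DMSO cells. Among 21 p53 targets, 4 were higher and 0 lower, with a median of 0.19. TP53INP1, a stress protein that also acts in autophagy, led them at 845 with PD184352 and 630.2 with PLX4720, against 156 in DMSO cells (2.43 with PD184352 and 2.0 with PLX4720).

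Of 34 lysosomal genes, 26 were above DMSO with both compounds and 7 below with both, against 40% above and 44.1% below over all genes. By 1.5-fold 3 were higher and 0 lower, against 3.21% and 6.68% over all genes, and the median was 0.29. CTSK, a cathepsin, read 436 with PD184352 and 403 with PLX4720, against 228 in DMSO cells, and SMPD1, the acid sphingomyelinase, 1125 with PD184352 and 995 with PLX4720, against 607 in DMSO cells. Of 23 autophagy genes 3 were higher and 0 lower, and of 16 antigen presentation genes 2 were higher and 1 lower, against 3.21% higher and 6.68% lower over all genes. CIITA, the master regulator of MHC class II genes, read 519 with PD184352 and 579 with PLX4720, against 342 in DMSO cells, and HLA-DMB, which loads class II molecules, 236 with PD184352 and 259 with PLX4720, against 135 in DMSO cells. Of 23 interferon-stimulated genes 3 were higher and 0 lower, with a median of 0.11.

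Few genes of energy metabolism passed 1.5-fold with both compounds. Of 31 oxidative phosphorylation genes, 24 were above DMSO with both compounds and 4 below, against 40% above and 44.1% below over all genes. Their median was 0.12. By 1.5-fold 1 was lower and 1 higher. The higher one, PPARGC1A, is the coactivator that directs mitochondrial biogenesis. It read 838 with PD184352 and 567 with PLX4720, against 241 in DMSO cells (1.79 with PD184352 and 1.23 with PLX4720). TFAM, which packages mitochondrial DNA, was lower at 111 with PD184352 and 128 with PLX4720, against 198 in DMSO cells. Of 25 glycolysis and pentose phosphate genes, 2 were lower and 2 higher: PFKFB3, which makes an activator of glycolysis, read 449.6 with PD184352 and 468 with PLX4720, against 782 in DMSO cells, and PFKFB2, of the same family, 599 with PD184352 and 505 with PLX4720, against 276 in DMSO cells. Of 26 cholesterol and fatty acid synthesis genes, 1 was lower and 1 higher. Of 19 CCN genes and YAP-TEAD targets, 1 was lower and 4 were higher, and of 17 neural and glial genes 1 was lower and 3 were higher. Of 18 cytokines 1 was lower and 3 were higher, and of 19 EMT and invasive-state factors 3 were lower and 4 higher. The shares over all genes were 6.68% lower and 3.21% higher by 1.5-fold, so the 1.5-fold counts in this paragraph differ from them by a few genes.

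The arrays of 2 h and 6 h share no array with those of 24 h, and they show how early a difference was present. At 6 h, 42 genes (0.329%) were at least 2-fold lower with both inhibitors, and 0 (0%) were 2-fold higher. Of those 42, 26 were also 2-fold lower at 24 h, which is 61.9% of them but 8.81% of the 295. By 1.5-fold, 157 genes (1.23%) were lower and 19 (0.149%) higher at 6 h, of which 60 and 13 belong to the genes lower and higher by 2-fold at 24 h. At 2 h, 20 genes (0.156%) were lower and 3 (0.0235%) higher by 1.5-fold, and 9 of the 20 were among the 295. At 6 h the median change of the 295 lower genes was −0.20 with PD184352 and −0.28 with PLX4720, so most of the difference appeared between 6 h and 24 h.

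Feedback inhibitors were among the early genes, with 9 of 11 at least 1.5-fold lower at 6 h, against 1.23% of all genes. SPRY4 changed by −1.93 with PD184352 and −1.95 with PLX4720 at 2 h, and by −4.36 and −3.91 at 6 h. DUSP6 stood at −2.94 with PD184352 and −2.82 with PLX4720 at 2 h, and at −4.05 and −3.23 at 6 h. The median of the feedback list was −0.46 at 2 h, −1.1 at 6 h and −0.83 at 24 h. Other genes were as early: the phosphate transporter SLC20A1 had a mean change of −1.90 at 6 h and FST one of −1.70, and both were still lower at 24 h. The cell-cycle lists were late: mitosis had a median of −0.06 at 6 h with 0 of 68 genes lower by 1.5-fold, and replication −0.11 with 0 of 47. CDK1 stood at −0.03 with PD184352 and −0.27 with PLX4720 at 6 h. CCND1 was earlier than the genes downstream of it in the cycle, at −1.45 with PD184352 and −1.45 with PLX4720 at 6 h. ETV4 and LPL lay between, with a mean change of −0.66 for ETV4 and −0.81 for LPL at 6 h.

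ANGPTL7, ITGA2, P2RX7, CCN3 and JUN had the largest rise in mean change from 6 h to 24 h. They were picked by that gap, so their lateness is no separate result. P2RX7 was already somewhat higher at 6 h, with a mean change of 0.59. ANGPTL7 had a mean change of 0.24 at 6 h and 4.21 at 24 h, and JUN 0.01 and 2.29. SLITRK6, SEMA3D and CITED2 were already higher at 6 h, with mean changes of 1.07 for SLITRK6, 1.02 for SEMA3D and 1.03 for CITED2. Not every early gene kept its difference. DKK1, a secreted inhibitor of WNT signalling singled out after its values were seen, had a mean change of −1.12 at 6 h, but −0.16 with PD184352 and 0.39 with PLX4720 at 24 h.

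**Figure D5:**
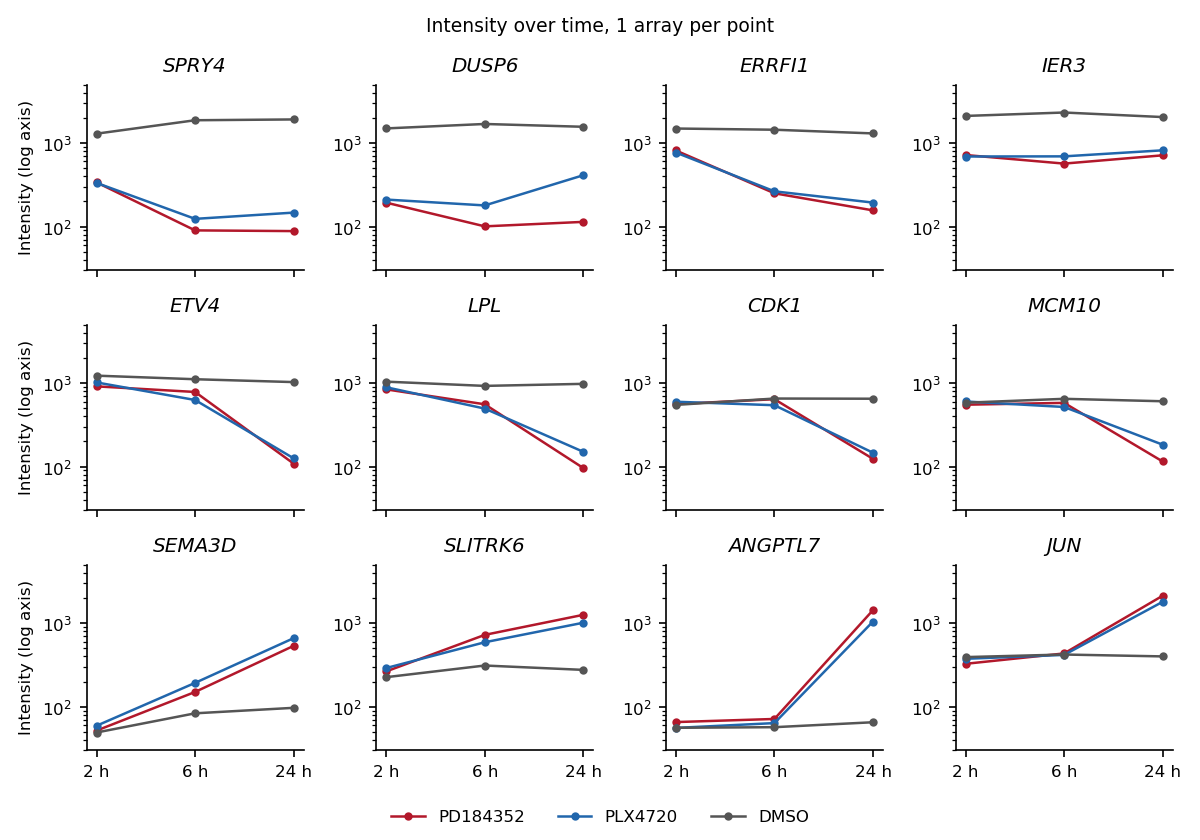
Intensity of 12 genes on a log axis at 2, 6 and 24 h (times evenly spaced), 1 array per point, for PD184352 (red), PLX4720 (blue) and DMSO (grey). SPRY4, DUSP6 and IER3 are apart from DMSO at 2 h, CDK1 and MCM10 only at 24 h, and ANGPTL7 and JUN climb between 6 h and 24 h on both inhibitor arrays.

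The compounds were used at different doses, 1 µM and 0.4 µM, so the counts and values that follow stand side by side and say nothing of which compound acts more strongly. Taken by itself, PD184352 passed 2-fold in 403 genes lower and 175 higher, and PLX4720 in 305 and 135. Further genes whose values lay apart on the inhibitor arrays were DTL, a ubiquitin ligase subunit of S phase, at 213 with PD184352 and 411 with PLX4720, against 1464 in DMSO cells, and SUMO2, at 53.7 with PD184352 and 119 with PLX4720, against 121 in DMSO cells. TCN1, a vitamin B12 binding protein, read 237 with PD184352 and 142 with PLX4720, against 67.4 in DMSO cells. PDZD11 read 645 with PD184352 and 331 with PLX4720, against 563 in DMSO cells, and SMS, spermine synthase, 193 with PD184352 and 113 with PLX4720, against 163 in DMSO cells.

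Some genes had more than 1 row on the array, and the brightest row was used. Of 20 other rows of the lower genes, 17 had the same direction with both compounds, 4 of them by 2-fold. The opposite direction was seen in 2, those of PLK1 and ORC6. Of 14 other rows of the higher genes, 9 had the same direction, 2 of them by 2-fold. The opposite was seen in 2 rows, both of CNOT7. Over all genes compared, 44.1% were below and 40% above DMSO with both compounds. Most of the other rows thus did not reach the limit. PLK1, a mitotic kinase, ORC6, of the origin recognition complex, and CNOT7, a deadenylase, were singled out after their values were seen, and their directions are uncertain.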

How the data were processed

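Total RNA of A375P cells was labelled with biotin and measured on a gene-level exon array. The values used are linear intensities as deposited by the authors in a series table, 1 column per treatment and time, all positive. Per the submitters' processing notes, RMA, limma and R 2.8.0 were used, with no role or order stated. The labels name no genome build. For arrays, their number limits the precision.

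From these intensities log2(value + 1) was computed in Python 3.11.15 with no further normalization, so the changes of dim genes are understated. Rows with 1 symbol in the platform table were used, the brightest row per gene (1794 genes had several). Of 17047 genes, 4262 with the lowest mean over 9 arrays were left out (lowest mean kept, 73.1), and 12785 were compared. Symbols were checked against RefSeq GRCh38.p14, and 0 changed. No pair of arrays was identical (0 pairs).

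With 1 array per group, no test is reported: the inhibitors are different compounds, share the DMSO array and are not replicates. A gene counted at 2-fold with both, and list members at 1.5-fold with both. A fit in limma 3.58.1 (R 4.3.3) over all 9 arrays, with residual degrees of freedom of 3 that come from the difference between the compounds, served only as an alternative; the counting and this fit were tested on simulated data. Other alternatives changed the fold, pseudocount, filter, normalization, choice of row and control array.

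Genes were named by rule: the first 20 each way by the smaller change, up to 6 per list among members past 1.5-fold, members against their list's direction, the 5 largest gaps each way between 24 h and 6 h and between compounds, and cell type markers. The members and all 34 lists (1109 genes, 932 with a row, 858 compared), and this rule, were chosen with earlier results of these data known, and 5 more lists were added after the values were seen. Of the 2-fold genes, 133 lower and 93 higher ones are in none of the 39 lists. The results of 1 list and of some genes are not reported here. Promoter windows and their coordinates are RefSeq's, GRCh38.p14, and cover 10190 of the genes compared.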

Additional observations from a re-analysis of the deposited data

Results flagged for a closer look

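Rows outside the main comparison also passed 2-fold with both inhibitors at 24 h. Among rows that carry several gene symbols, 30 were lower and 13 higher, which is 1.31% and 0.567% of the 2294 such rows bright enough to be compared. Among rows not in the platform table, 34 were lower and 39 higher, 0.672% and 0.771% of 5061. No gene can be named from these rows.

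CIITA differed in direction between times. Its intensity at 24 h was 519 with PD184352 and 579 with PLX4720, against 342 with DMSO, while at 6 h it was 201 with PD184352 and 246 with PLX4720, against 395 with DMSO. The mean change was 0.68 at 24 h and −0.83 at 6 h, a difference of 1.50446 (log2). Both inhibitors passed 1.5-fold in opposite directions at these times, and the difference was not tested.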

How the results depend on the processing

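The number of genes counted, 295 lower and 124 higher, depends on the fold asked for. With 1.5-fold it was 854 lower and 410 higher, and with 3-fold 69 and 28. By the limma fit with an adjusted p below 0.05 and no fold, it was 2450 and 1595. All genes counted at 2-fold were among those calls, but this overlap is no support for them. The spread in that fit is the difference between the compounds and not between cultures, and each time has 1 DMSO array. Such a spread favours genes on which both compounds agree, and the 2-fold genes were picked for that agreement. The calls of this fit are thus given as a count under another setting and not as a test result. The other alternatives kept the counts within 1.5 times: 264 to 403 lower and 93 to 175 higher. They were no pseudocount or one of 16, no filter or a stricter filter on dim genes, quantile normalization, equal medians, the mean of a gene's rows, DMSO at 6 h or the mean of 3 DMSO arrays as control, and each inhibitor alone. With DMSO at 6 h as control, 272 of the 295 and 102 of the 124 genes passed again. Of the 210 genes named by rule and recomputed, PDZD11 turned its sign with both other controls and no other gene did; genes named after their values were seen were not recomputed. List medians near 0 turned sign in 9 lists, integrins in 4 settings among them; those of mitosis and of the feedback inhibitors did not, mitosis staying between −1.52 and −1.17 and the feedback list between −0.95 and −0.76. The cause of these shifts was not tested. No paired analysis was possible because each group has 1 array and no replicate numbers. Dim genes are limited by signal over background: the dimmest 25% were not compared.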

Other observations

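Among the 133 lower and 93 higher genes that belong to none of the lists, some were singled out here after their values were seen. ELOVL2, which elongates polyunsaturated fatty acids, read 252 with PD184352 and 392 with PLX4720, against 1374 in DMSO cells (−2.44 with PD184352 and −1.81 with PLX4720), and SLC20A1, a phosphate transporter, 308 with PD184352 and 348 with PLX4720, against 1402 in DMSO cells. ALDH1A3, which makes retinoic acid, read 1011 with PD184352 and 1295 with PLX4720, against 2822 in DMSO cells, and GNE, the first enzyme of sialic acid synthesis, 405 with PD184352 and 424 with PLX4720, against 1298 in DMSO cells. NT5E, the surface enzyme that makes adenosine from AMP, read 83.2 with PD184352 and 86.5 with PLX4720, against 218 in DMSO cells, while P2RX7, a receptor for extracellular ATP, was the second of the higher genes. The matrix crosslinker LOXL4 read 907 with PD184352 and 1133 with PLX4720, against 3002 in DMSO cells, and the decoy receptor IL13RA2 588 with PD184352 and 508 with PLX4720, against 1239.8 in DMSO cells. The homeobox factor MEOX2 read 306 with PD184352 and 451 with PLX4720, against 1157 in DMSO cells, and PPARGC1B, a relative of the coactivator PPARGC1A, was lower at 218 with PD184352 and 232 with PLX4720, against 481 in DMSO cells where PPARGC1A was higher.

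The next genes were higher, and they were picked one by one and stand for no group. MEF2C, a transcription factor of muscle and neural crest derivatives, read 490.2 with PD184352 and 435 with PLX4720, against 149 in DMSO cells (1.71 with PD184352 and 1.54 with PLX4720). EPAS1, the hypoxia factor HIF-2 alpha, read 574 with PD184352 and 490.1 with PLX4720, against 202 in DMSO cells, and ABCB5, a transporter known from melanoma, 295 with PD184352 and 229 with PLX4720, against 87.2 in DMSO cells. ACAN, the proteoglycan aggrecan, read 2148 with PD184352 and 1750.4 with PLX4720, against 834 in DMSO cells, while HAPLN1, which links such proteoglycans to hyaluronan, was among the lowest. IGFBP5, which binds insulin-like growth factors, read 258 with PD184352 and 192 with PLX4720, against 84.2 in DMSO cells, and PIK3R3, a regulatory subunit of PI3 kinase, 1395 with PD184352 and 1096 with PLX4720, against 517 in DMSO cells. NTN4, a netrin, read 313 with PD184352 and 372 with PLX4720, against 110.3 in DMSO cells. These values are single arrays and were not tested.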
